A study of Mus musculus with 14 samples.

Results

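The genes described here are Trp53, which encodes p53, together with 3 genes for proteins that restrain p53 (Mdm2, Mdm4, and Ppm1d) and 5 genes of the kinase and repair pathway that senses DNA damage (Atm, Atr, Chek1, Chek2, and Brca1). They are the listed 9 of 32820 mouse genes with an annotated start in GRCm38, of which 21441 are protein coding, and each was followed by the H3K4me3 peaks that overlap the 1 kb on either side of its start. H3K4me3 is a histone mark found at the starts of active genes. The sample titles call the assay CUT&RUN, whereas the protocol given with the samples describes CUT&Tag, in which an antibody directs a transposase to the chromatin carrying the mark. The cells were Lin−Sca1+cKit+ (LSK) hematopoietic stem and progenitor cells sorted from the BM of male C57BL/6J mice. HFD mice were fed 60% of calories as fat and LFD mice 10%, starting at 3 to 4 wk of age and lasting 16 to 20 wk. A peak list was analyzed for each of 3 HFD-LSK and 4 LFD-LSK libraries, and none of the 7 lists repeats another. The labels do not say how many mice gave a library or that the replicates came from separate mice, so p-values measure the spread between these libraries, which may be technical.

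When DNA breaks or replication stalls, the kinases ATM and ATR are activated, and they signal through CHK2 and CHK1 to stop the cell cycle. They also stabilize p53, a transcription factor that induces arrest, repair, or apoptosis and that is otherwise held low by MDM2 and MDM4. In blood stem cells p53 is known for its part in quiescence and in the loss of damaged cells.

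Each peak comes with the authors' fold enrichment of its summit over the local background of the library. Since fold depends on that background, peaks were ranked by fold within each list, with rank 1 the strongest, and ranks are given also as the percent of the list. Tied peaks share a mean rank. The lists held 9186 to 13094 peaks in HFD-LSK and 6921 to 10572 in LFD-LSK, and LFD-LSK 4 was the shortest. Between 281 and 1406 different fold values occur in a list, so that small steps in rank carry no information. Read totals are not given, so the depth behind a value is unknown. Of 10 LSK marker genes, 5 (Kit, Cd34, Meis1, Gata2, and Mecom) had a peak at the start in all 7 lists and Ly6a, which encodes the Sca1 used for sorting, had none in any list. T cell, B cell, and neutrophil markers (4, 3, and 3 genes) and 4 markers of non-blood tissue had no peak in any list.

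H3K4me3 peaks were found at the starts of all 9 genes in HFD-LSK and in LFD-LSK. Of 63 possible calls, 58 were made. Each of the 3 HFD-LSK lists and LFD-LSK 1, 2, and 3 held a peak at 9 of 9 starts, while LFD-LSK 4 held one at 4 of 9 (Mdm2, Mdm4, Atm, and Chek1). The 9 starts were therefore all called in the 3 HFD-LSK lists, compared with 38.0% of protein-coding starts, and 4 of 9 were called in all 7 lists, compared with 21.8%. At Trp53, Atr, Chek2, Brca1, and Ppm1d, the nearest peak of LFD-LSK 4 lay 52730, 345283, 29830, 83614, and 41399 bp from the start. Among the 6245 protein-coding starts called in the other 6 lists, 25.1% had no call in LFD-LSK 4, compared with 5 of the 9 genes. These 5 genes, each with a call in every HFD-LSK list and in 3 LFD-LSK lists, did not separate the diets (p = 1.00 for each gene by the two-sided Fisher's exact test). With a call missing in 1 list alone, this test cannot give a p under 0.05, so it decides nothing about the diets. A start without a peak in a list may carry the mark below the limit of that list. When peaks were kept at a −log10 q of 5 or more, or when lists were shortened to the same length, 2 of the 9 genes were called in all 7 lists. The share of all protein-coding starts was not counted under these settings, so the fall cannot be compared with that of other starts.

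None of the 9 genes differed in rank between HFD-LSK and LFD-LSK beyond the spread between libraries, and neither did the 4 genes with a peak in every list in width. As a percent of the list, the ranks of Mdm2 did not overlap between the diets. Mean ranks were compared by an exact permutation test over the 35 ways to divide the 7 libraries into 3 and 4 (two-sided throughout), in which the smallest possible p is 0.0286. A list without a peak at a start was given the middle of the ranks beyond its end (10790.5 in LFD-LSK 4). The rank ranges of HFD-LSK and LFD-LSK overlapped at all 9 starts, and 0 of 9 had a p under 0.05. Over the 13336 gene starts called in at least 1 list, 2.07% ranked nearer the top in every HFD-LSK library than in every LFD-LSK library, 2.36% ranked farther from it, and 2.42% had a p under 0.05. Mean rank was nearer the top in HFD-LSK at 7 of the 9 starts, with a median difference of −654, compared with 50.6% of all starts and a median of −37.1. At Trp53, Atr, Chek2, Brca1, and Ppm1d the LFD-LSK mean includes the rank assigned in LFD-LSK 4. Without that library the difference turned to 1679 at Trp53 and 595 at Atr, and the other genes kept their direction. After Benjamini-Hochberg adjustment over the 13336 starts, the lowest exact permutation p was 0.978. Because the lists differ in length, the rank was also expressed as the percent of the list. This moved the starts that do not overlap from 276 nearer the top and 315 farther from it to 541 and 97. On this scale an assigned rank lies beyond the end of its list, and farther beyond it in a shorter list. The part of these assigned ranks in the move was not tested. Nearer the top by percent of the list were 4.06% of starts and 1 of the 9 genes, Mdm2. A lower rank from fewer cells with the mark and from less mark per cell cannot be told apart in these libraries.

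**Figure D1:**
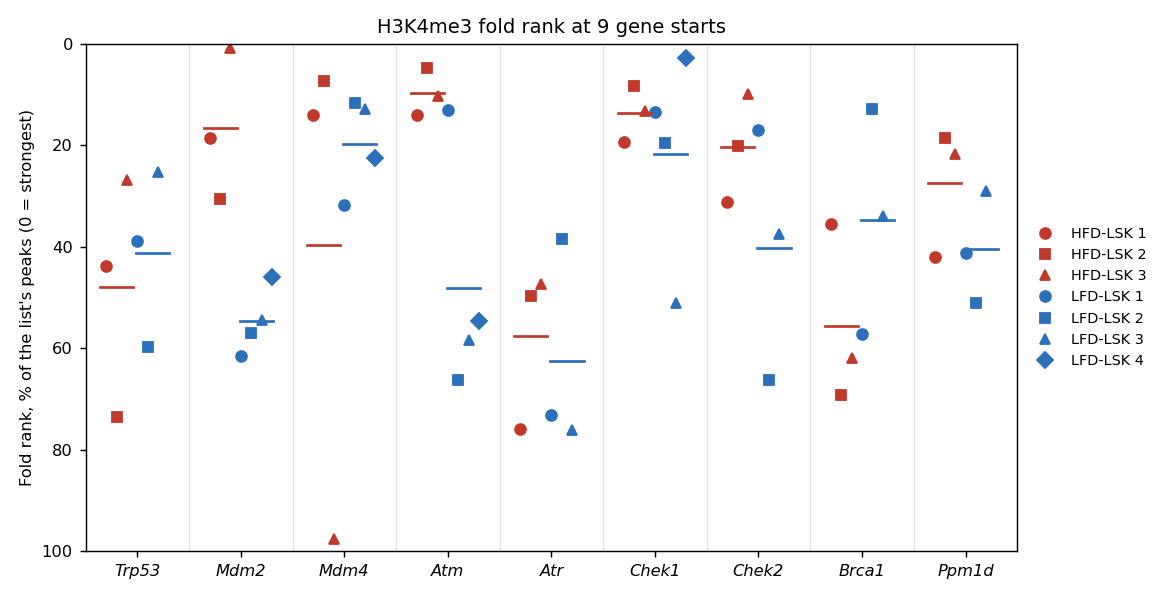
Rank by fold enrichment of the H3K4me3 peak at 9 gene starts, as the percent of the list's peaks (0 is the strongest), in 3 HFD-LSK (red) and 4 LFD-LSK (blue) libraries. Bars are means over the lists with a peak, and LFD-LSK 4 has a point for 4 genes. The diets are apart for Mdm2 and overlap for the other 8 genes.

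Atm and Atr encode the kinases at the head of the pathway, ATM for double-strand breaks and ATR for single-stranded DNA at stalled forks. The Atm peak ranked 1295.5, 607.5, and 1231.5 in HFD-LSK 1, 2, and 3 and 973, 6994.5, 6046, and 3784.5 in LFD-LSK 1, 2, 3, and 4. The 3 HFD-LSK values are close together and high in the list, and LFD-LSK 1 lies among them while the other 3 LFD-LSK values are far lower. Ranks averaged 1045 ± 380 over the 3 HFD-LSK and 4450 ± 2680 over the 4 LFD-LSK libraries (mean ± SD), a difference of −3405 that did not pass (exact permutation p = 0.114; Benjamini-Hochberg adjusted p = 0.978). As a percent of the list the means were 9.67 ± 4.76 and 48.1 ± 23.8 (exact permutation p = 0.0857). The Atr peak was among the weakest of the 9, at ranks 6970.5, 6518.5, and 5679 in HFD-LSK and 5446, 4057.5, and 7879.5 in LFD-LSK 1, 2, and 3. These ranges overlap fully. The difference of −654 (exact permutation p = 0.771) turned to 595 without LFD-LSK 4, which held no Atr peak.

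Upstream of Atm, the start of Npat, a coactivator of histone genes, lies on the other strand at −376 bp, and its gene record reaches to −218 bp (negative distances are upstream of the named gene). In all 7 lists the Atm summit lay upstream, between −705 and −161 bp with a median of −513 bp, so that the strongest point of the peak was beyond the Npat start at −376 bp in 5 of them. The promoter is shown because it lies between these starts. The 250 bases before the Atm start (chr9:53536672-53536921 of GRCm38, minus strand, RefSeq) hold 24 CG dinucleotides, printed in capitals.
Atm: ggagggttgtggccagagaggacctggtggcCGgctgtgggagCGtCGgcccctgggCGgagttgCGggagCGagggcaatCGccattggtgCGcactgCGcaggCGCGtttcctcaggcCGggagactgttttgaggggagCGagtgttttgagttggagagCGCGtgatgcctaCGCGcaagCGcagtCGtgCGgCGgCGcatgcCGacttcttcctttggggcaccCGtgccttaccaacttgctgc
In this window the NRF1 motif GCATGCGC, which 2.71% of 32851 RefSeq promoter windows hold, begins at −51 in its reverse complement. Atr in turn shares its start with 1700065D16Rik, a gene on the other strand with starts at −80 and 285 bp. The Atr summits lay downstream of the Atr start in 6 of 6 lists, from 167 to 592 bp, and the peak covered the start in 3 of them.

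Chek1 and Chek2 encode the effector kinases CHK1, which acts mainly in S phase and G2, and CHK2, which is activated by ATM. Chek1 had the strongest median position of the 9 genes, at 13.5% of the list. Its peak ranked 1783, 1074.5, and 1597.5 in HFD-LSK and 1004, 2071, 5290, and 187.5 in LFD-LSK 1, 2, 3, and 4. The HFD-LSK values lie within the LFD-LSK range, which spans from the upper 2.71% of the list in LFD-LSK 4 to 51.1% in LFD-LSK 3. The difference of −653 (exact permutation p = 0.800) turned to 397 without LFD-LSK 3. In LFD-LSK 4, the list without a peak at 5 of the 9 starts, Chek1 was the best placed of the 4 genes called. The Chek2 peak ranked 2861.5, 2630, and 1175 in HFD-LSK and 1267, 6994.5, and 3870.5 in LFD-LSK 1, 2, and 3. LFD-LSK 1 falls among the HFD-LSK values and the other LFD-LSK values are lower. The difference of −3508, in which LFD-LSK 4 entered with an assigned rank, did not pass (exact permutation p = 0.257).

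Summits at Chek1 lay within −34 and 68 bp of the start in all 7 lists, the tightest placement among the 9 genes, and no other annotated start lies within 1 kb. Chek2 shares its promoter with Hscb, a gene for a mitochondrial iron-sulfur cluster chaperone, whose start lies at −190 bp. The summit was upstream of the Chek2 start in 5 of 6 lists, with a median of −142 bp. In the 3 HFD-LSK lists it stood between −179 and −175 bp, next to the Hscb start. In LFD-LSK 1, 2, and 3 it stood at 30, −109, and −90 bp. A difference in summit position between the diets was not tested. A peak that covers both starts of such a pair gives no separate value for either gene.

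Brca1, needed for repair by homologous recombination, ranked 3262, 9075.5, and 7408.5 in HFD-LSK and 4266, 1352, and 3517 in LFD-LSK 1, 2, and 3. HFD-LSK 1 lies among the LFD-LSK values, and HFD-LSK 2 and 3 lie lower in the list than all of them. With LFD-LSK 4 at its assigned rank, the difference was 1601 (exact permutation p = 0.600). As a percent of the list it became −9.43 percentage points. In that percent the assigned rank, 10790.5, lies beyond the 6921 peaks of LFD-LSK 4 and counts as more than the whole list. Over the lists with a peak, the mean was 55.6% in HFD-LSK and 34.7% in LFD-LSK, so there Brca1 stayed farther from the top in HFD-LSK. The Brca1 summit lay upstream of the start in 6 of 6 lists, from −914 to −198 bp with a median of −718 bp. That is on the side of Nbr1, a gene for an autophagy receptor with annotated starts at −152 and −699 bp on the other strand. The peak covered the Brca1 start in 4 of 6 lists.

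**Figure D2:**
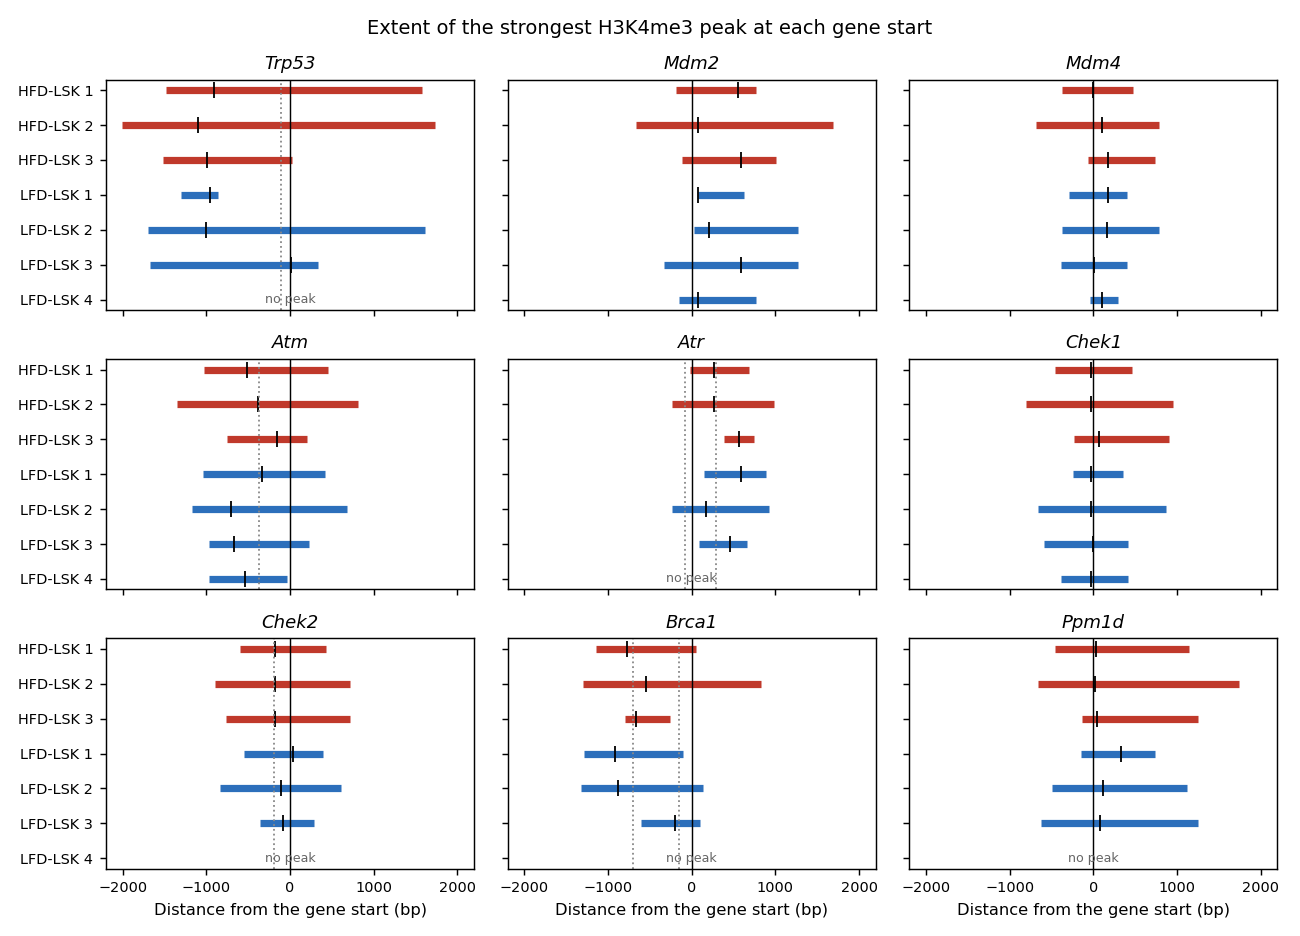
Extent of the strongest H3K4me3 peak at each of 9 gene starts in 3 HFD-LSK (red) and 4 LFD-LSK (blue) libraries, by distance from the start in bp, with upstream to the left. Ticks mark summits, solid lines the named start, and dotted lines the starts of genes on the other strand. Summits lie upstream at Atm and Brca1 in every list with a peak and downstream at Mdm2, Atr, and Ppm1d.

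Trp53 had the widest peak of the 9 genes, and the sign of its rank difference between the diets depended on the libraries used. The peak ranked 4010.5, 9624, and 3215 in HFD-LSK and 2896, 6307.5, and 2608 in LFD-LSK 1, 2, and 3, with no peak in LFD-LSK 4. HFD-LSK 1 and 3 lie among the LFD-LSK values and HFD-LSK 2 lies below them, so the diets overlap. The difference in mean rank was −34 with the assigned rank for LFD-LSK 4 (exact permutation p = 0.971) and 1679 without that library (exact permutation p = 0.500). The width was 3072, 3743, and 1540 bp in HFD-LSK and 440, 3314, and 2006 bp in LFD-LSK 1, 2, and 3. LFD-LSK 1 is the lowest. Its list holds 3 peaks at the start, which cover 1441 bp together, still the least of the 6 lists, and the list of LFD-LSK 3 holds 2 peaks, which cover 2738 bp. By median width, 2539 bp, 0.891% of the 11564 protein-coding starts called in at least 1 list were wider. By median rank Trp53 was ordinary, at 41.3% of the list, and 41.5% of the same starts were nearer the top.
In 5 of 6 lists, all but LFD-LSK 1, the Trp53 peak ran over the Trp53 start and over that of Wrap53, a gene on the other strand at −109 bp that encodes a telomerase protein and antisense transcripts of Trp53. In 5 of 6 lists the summit lay well upstream of both starts, between −1098 and −911 bp, and in LFD-LSK 3 it lay at 12 bp. In HFD-LSK 2 the peak occupied chr11:69578348-69582090 of GRCm38, from 2011 bp upstream of the Trp53 start to 1731 bp downstream.

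Mdm2 encodes the ubiquitin ligase that targets p53 for degradation and is itself a target gene of p53, through a promoter in its first intron. Its peak ranked 1709.5, 4009, and 91.5 in HFD-LSK and 4587, 6031, 5629.5, and 3173.5 in LFD-LSK 1, 2, 3, and 4. HFD-LSK 3 stands near the very top of its list, and HFD-LSK 2 overlaps the best LFD-LSK value. Ranks averaged 1937 ± 1969 over the 3 HFD-LSK and 4855 ± 1276 over the 4 LFD-LSK libraries, a difference of −2919 (exact permutation p = 0.0857; Benjamini-Hochberg adjusted p = 0.978). As a percent of the list, Mdm2 stood at 18.6, 30.6, and 0.764 in HFD-LSK and at 61.6, 57.0, 54.4, and 45.9 in LFD-LSK. On this scale the diets do not overlap. The means were 16.7 ± 15.0 in HFD-LSK and 54.7 ± 6.62 in LFD-LSK, a difference of −38.1 percentage points that reached the smallest p of the design (exact permutation p = 0.0286). It did not pass after Benjamini-Hochberg adjustment over all starts (exact permutation, adjusted p = 0.700). With each library left out in turn the difference in rank stayed between −3955 and −1996.

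The Mdm2 summit lay downstream of the start in 7 of 7 lists, at 75, 208, or 557 to 595 bp, and the peak extended a median of 1002 bp downstream compared with 151 bp upstream. No other annotated start lies within 1 kb. The 250 bases before the start (chr10:117710759-117711008 of GRCm38, minus strand, RefSeq) are shown for their density of CG, since they border a peak that lies mostly on the gene side.
Mdm2: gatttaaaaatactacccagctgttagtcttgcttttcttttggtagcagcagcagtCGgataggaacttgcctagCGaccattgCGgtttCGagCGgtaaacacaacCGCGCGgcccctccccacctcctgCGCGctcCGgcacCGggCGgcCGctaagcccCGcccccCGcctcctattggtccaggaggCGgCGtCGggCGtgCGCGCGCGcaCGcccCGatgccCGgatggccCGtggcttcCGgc
They hold 29 CG dinucleotides, in capitals, and the window of 300 bases that also takes in the first 50 bases of the gene holds 35, more than 93.0% of all promoter windows. Of the motifs searched, GC boxes (GGGCGG, either strand) begin at −104 and −88, CCAAT (reverse complement) at −72, an ETS motif (CCGGAAG, reverse complement) at −8, and a match to the p53 half-site at −186.

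Mdm4, a relative of Mdm2 that inhibits p53 without degrading it, has 2 annotated starts 5171 bp apart on chromosome 1, and H3K4me3 was found at 1 of them. The inner start, at 133025416, had a peak in 7 of 7 lists, and the outer start, at 133030587, in 0 of 7. The 250 bases before each start are set side by side for this contrast (chr1:133025417-133025666 for the inner and chr1:133030588-133030837 for the outer, GRCm38, minus strand, RefSeq), with CG in capitals.
Mdm4 inner: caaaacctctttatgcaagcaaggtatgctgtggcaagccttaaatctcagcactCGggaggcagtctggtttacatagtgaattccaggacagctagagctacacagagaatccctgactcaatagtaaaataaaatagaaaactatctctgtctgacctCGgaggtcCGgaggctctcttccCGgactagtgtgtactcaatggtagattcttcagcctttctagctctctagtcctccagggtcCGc
Mdm4 outer: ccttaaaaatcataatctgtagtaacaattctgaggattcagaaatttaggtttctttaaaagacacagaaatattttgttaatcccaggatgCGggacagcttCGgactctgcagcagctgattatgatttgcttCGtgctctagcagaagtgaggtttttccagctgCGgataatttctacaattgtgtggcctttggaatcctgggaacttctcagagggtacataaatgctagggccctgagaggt
They hold 5 and 4 CG, and in the windows of 300 bases the number is 9 and 4, compared with a median of 7 over all promoter windows. The nearer end of a pseudogene, Gm29257, lies at −408 bp from the inner start. The inner window holds 1 of the motifs searched, CCGGAAG at 21 bp, and the outer window holds none.
At the inner start the Mdm4 peak ranked 1295.5, 954.5, and 11705.5 in HFD-LSK and 2360.5, 1240, 1324.5, and 1547 in LFD-LSK 1, 2, 3, and 4. HFD-LSK 3 stands alone near the end of its list, at 97.7%, while the other 6 libraries lie between 7.29% and 31.7%. Ranks averaged 4652 ± 6111 over the 3 HFD-LSK and 1618 ± 512 over the 4 LFD-LSK libraries, a difference of 3034 (exact permutation p = 0.457) that became −493 without HFD-LSK 3. In width this library was not apart, with 798 bp compared with 336 to 1464 bp in the others. Of the 5283 gene starts called in all 7 lists, 211 (3.99%) lay more than 50 percentage points farther down in HFD-LSK 3 than in each other list, compared with 5 to 40 starts for each of the other libraries. This limit of 50 was chosen after the values were seen, and the part of that library in the Mdm4 value was not tested.

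Ppm1d encodes the phosphatase WIP1, which is induced by p53 and dephosphorylates ATM targets. Its peak ranked 3867, 2439.5, and 2598 in HFD-LSK and 3067, 5402, and 3004.5 in LFD-LSK 1, 2, and 3. LFD-LSK 1 and 3 lie among the HFD-LSK values, and LFD-LSK 2 lies lower in its list. The difference of −2598 with the assigned rank in LFD-LSK 4 did not pass (exact permutation p = 0.286). The summit lay downstream of the start in 6 of 6 lists, at 15 to 330 bp. With a median width of 1610 bp, Ppm1d had the second-widest peak of the 9 genes, and 8.86% of protein-coding starts were wider.

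By median position in the list, the order from the top was Chek1 (13.5%), Mdm4 (14.1%), Atm (14.1%), Chek2 (25.6%), Ppm1d (35.1%), Trp53 (41.3%), Mdm2 (45.9%), Brca1 (46.4%), and Atr (61.5%). The ranges of every 2 neighbours in this order overlap, and the gene named first ranked nearer the top in 2 to 4 of the 6 or 7 lists that held both. Between the ends of the order, Chek1 was nearer the top than Atr in 6 of 6 lists, although their ranges over the lists overlap. The median over the 9 genes was 35.1% of the list and 1188 bp, compared with 48.3% and 854 bp for the 11564 protein-coding starts called in at least 1 list and with 28.7% and 1085 bp for the 4677 called in all 7.

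**Figure D3:**
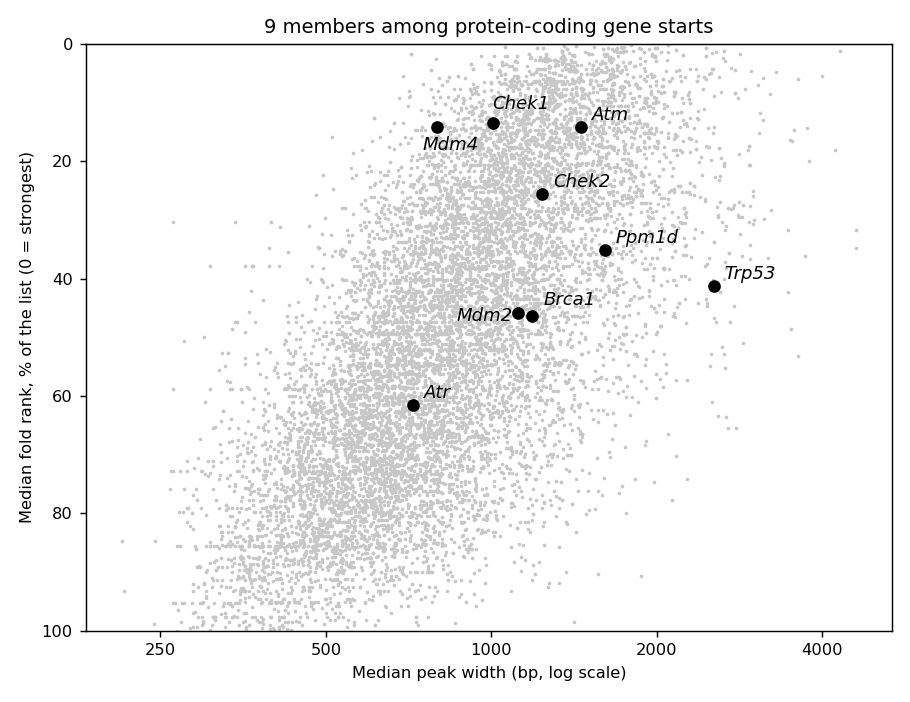
Median width (bp, log scale) and median fold rank (percent of the list, 0 is the strongest) of the peaks at 11564 protein-coding gene starts called in at least 1 list (gray) and at the 9 genes (black). Trp53 stands to the right of most starts at its rank, at 2539 bp, and Atr lies lowest, at 61.5% of the list.

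Peaks at the 9 starts were widest in HFD-LSK 2, and widths did not separate the diets. The widest of the peaks at a start belonged to HFD-LSK 2 for 9 of 9 genes, compared with 79.7% of the 7431 protein-coding starts called in that list and in at least 6 lists. The test of width needs a peak in every list, which leaves Mdm2, Mdm4, Atm, and Chek1. Mdm2 measured 959, 2366, and 1117 bp in HFD-LSK and 547, 1247, 1611, and 916 bp in LFD-LSK. Atm measured 1485, 2168, and 952 bp compared with 1455, 1857, 1190, and 940 bp. Mdm4 measured 855, 1464, and 798 bp compared with 689, 1163, 785, and 336 bp. Chek1 measured 922, 1752, and 1143 bp compared with 602, 1529, 1006, and 805 bp. For each of these genes the ranges overlap, and HFD-LSK 2 lies above the rest. Mean width was larger in HFD-LSK for 4 of 4, by 400, 174, 296, and 287 bp for Mdm2, Atm, Mdm4, and Chek1 (exact permutation p = 0.457, 0.629, 0.314, and 0.40), and the same direction held for 92.6% of the 5283 gene starts called in all 7 lists. Of those 5283, 6.64% were wider in every HFD-LSK than in every LFD-LSK library, 0% were narrower, and 3.54% had an exact permutation p under 0.05, compared with 0 of the 4 genes in each case. When widths were ranked within each list, the 351 and 0 starts became 51 wider and 269 narrower, and the 4 genes ranked lower in HFD-LSK, by 12.3, 1072, 252, and 345 ranks for Mdm2, Atm, Mdm4, and Chek1. Without HFD-LSK 2 the width difference became −42.2 bp at Mdm2 and −142 bp at Atm.
Of the genes with fewer calls, Atr had the narrowest peaks, with 702, 1218, and 356 bp in HFD-LSK and 738, 1163, and 579 bp in LFD-LSK 1, 2, and 3. Chek2 ranged from 653 to 1612 bp, Brca1 from 550 to 2126 bp, and Ppm1d from 892 to 2403 bp.

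**Figure D4:**
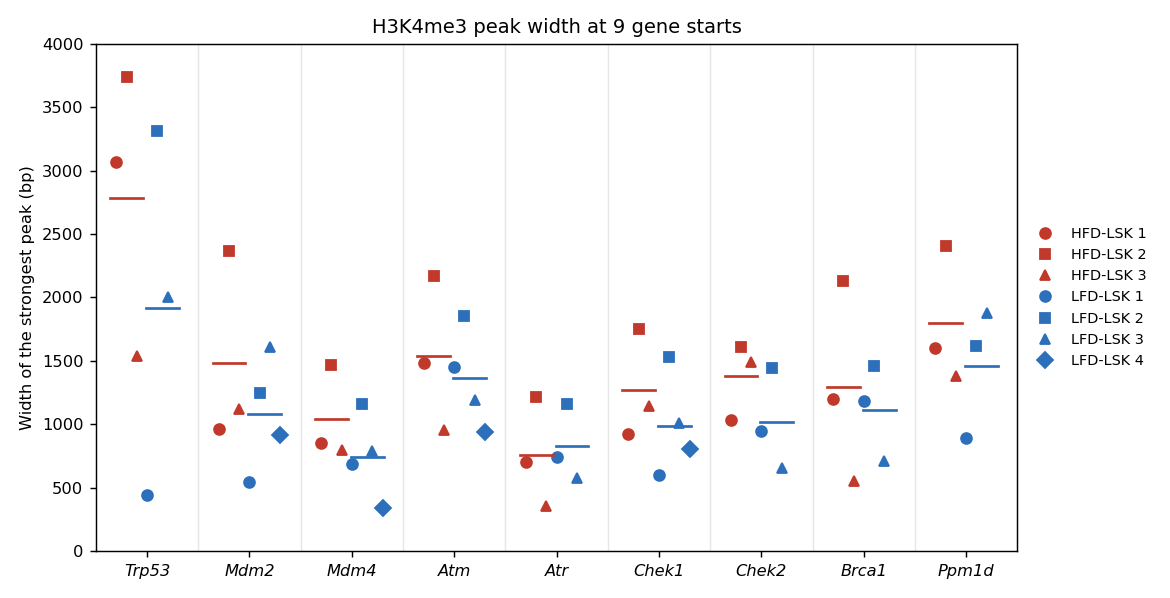
Width (bp) of the strongest H3K4me3 peak at 9 gene starts in 3 HFD-LSK (red) and 4 LFD-LSK (blue) libraries, with bars for the means over the lists with a peak. HFD-LSK 2 has the widest peak at each gene, from 1218 bp at Atr to 3743 bp at Trp53.

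The promoters of the 9 genes were compared by the letters of 300 bases around each start, from 250 before it to 50 into the gene, in the RefSeq table of GRCm38 (10 windows, 2 of them at Mdm4). GC content ran from 43.0% at the outer Mdm4 start to 66.0% at Ppm1d, compared with a median of 52.7% over 32851 windows. CG dinucleotides numbered 35 at Mdm2, 30 at Ppm1d, 28 at Atm, 22 at Atr and Chek1, 21 at Chek2, 19 at Brca1, and 10 at Trp53. Trp53, with the widest peak, thus had the fewest CG of the windows with a peak other than Mdm4. Searched on both strands, the GC box GGGCGG was in 4 of 10 windows (35.7% of all windows), CCAAT in 6 (37.4%), and TATAAA in 2 (13.6%). The ETS motif CCGGAAG was in 4 (8.86% of all windows), at Mdm2, the inner Mdm4 start, Atm, and Atr, in each within −8 to 21 bp of the start. The p53 half-site was in 3 windows (8.36% of all windows), at Trp53, Mdm2, and Ppm1d, the NRF1 motif in 1, and the E2F motifs TTTGGCGC and TTTCGCGC in none (0.813% of all windows). Of the GC boxes, those at −31 and −27 of Ppm1d overlap. The Chek1 window holds none of the motifs searched. These are matches of letters in a window and not measured sites.

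Of the genes called in all 7 lists, Mdm2, Mdm4, Atm, and Chek1, the protein-coding gene on another peak whose 7 positions came closest was Tns3, Zcchc7, Iqgap2, and Zfp787, with a mean absolute difference of 6.25, 4.24, 8.59, and 5.20 percentage points over the 7 lists.

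Beyond the 9 genes, 69 other genes of the DNA damage and p53 pathways were counted by role. All 69 had an annotated start, and 25 (36.2%) had a peak in all 7 lists, 32 in 4 to 6, 7 in 1 to 3, and 5 in none. Of the 21441 protein-coding starts, 21.8% were called in all 7 lists, 22.3% in 4 to 6, 9.85% in 1 to 3, and 46.1% in none, and the counts by role stand against these shares. Among 19 sensors and mediators, 6 were called in all 7 lists, among 12 genes of recombination and the Fanconi pathway 4, among 4 of end joining 1, and among 4 checkpoint effectors 2. All genes of the latter 3 roles had a peak in at least 4 lists. Of 9 regulators of p53, 4 were called in all 7 lists, and of 21 target genes of p53, 8. The genes in none were Atrip (the partner of ATR), H2afx (the H2AX histone), Trp63 (a relative of p53 in epithelium), and the p53 targets Perp and Eda2r. Called in 1 to 3 lists were Trp73 and Tigar (1 list each), Topbp1 and Phlda3 (2 each), and Clspn, Pmaip1, and Fas (3 each). The genes in 1 or 2 lists were called in HFD-LSK alone, Trp73 and Tigar in HFD-LSK 2, the longest list, and their rank differences did not pass (exact permutation p from 0.600 to 0.943). HFD-LSK lists called 41.4 to 51.8% of protein-coding starts and LFD-LSK lists 30.6 to 45.1%. The share of all starts in 1 or 2 lists that were called in HFD-LSK alone was not counted, so no diet difference is read from these calls.
Nearest the top by mean rank over the 7 libraries were Sesn1, a p53 target (719), Wee1, the kinase that restrains CDK1 (995), and Rad17, which loads the 9-1-1 clamp (1043). Sesn1 ranked 1867, 486, and 1385 in HFD-LSK and 53, 929, 198, and 112.5 in LFD-LSK, and LFD-LSK 2 lies among the HFD-LSK values (exact permutation p = 0.0857).

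**Figure D5:**
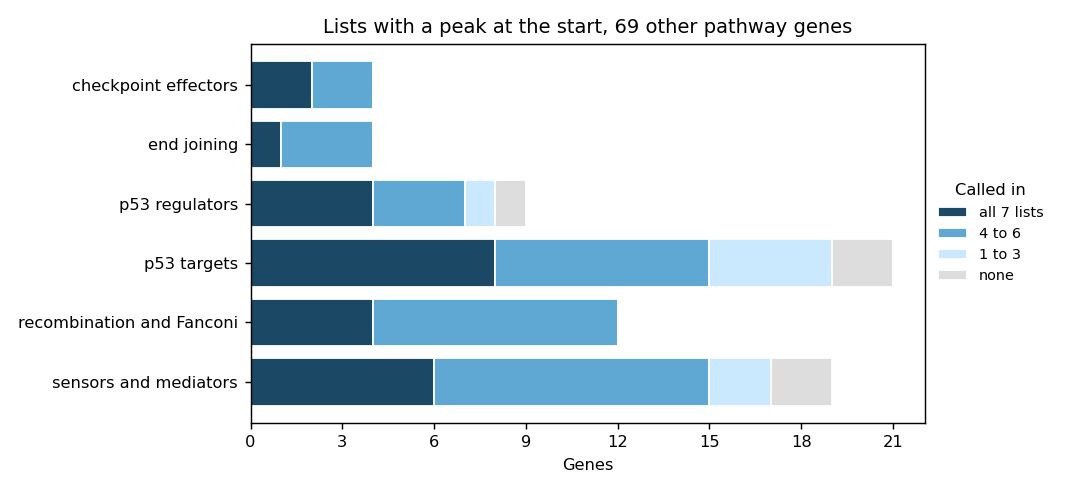
Number of genes with an H3K4me3 peak within 1 kb of the start, by how many of the 7 lists called it, for 69 other genes of the DNA damage and p53 pathways in 6 roles. All 7 lists called 25 genes, and 5 genes were in none.

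No gene of the 69 had a rank p under 0.05 in the exact permutation test, compared with 2.42% of all starts. Ranks did not overlap for 4 of the 64 with a call, all nearer the top in HFD-LSK (2.07% of all starts), and for 0 in the other direction (2.36%). These were Polk, a translesion polymerase, Dclre1c, the Artemis nuclease of end joining, Blm, a helicase of recombination, and Rrm2b, the p53-induced subunit of ribonucleotide reductase. Polk ranked 256.5, 252.5, and 139.5 in HFD-LSK and 1464.5, 765.5, and 5483 in LFD-LSK 1, 2, and 3, without a peak in LFD-LSK 4. Rrm2b ranked 1515.5, 1168, and 2598 in HFD-LSK and 2605, 7693, 7820, and 2872.5 in LFD-LSK, so that HFD-LSK 3 and LFD-LSK 1 nearly meet. Blm ranked 3516, 3634.5, and 74.5 in HFD-LSK and 4075.5, 3788, 8493, and 5860 in LFD-LSK. Dclre1c ranked 4134, 2713, and 185 in HFD-LSK and 4177.5 and 6228 in LFD-LSK 2 and 3, without a peak in LFD-LSK 1 and 4. The nearest ranks of the diets are close at Blm (3634.5 and 3788) and at Dclre1c (4134 and 4177.5). HFD-LSK 1 holds 9186 peaks and LFD-LSK 2 holds 10572, so as a percent of the list the diets overlap at these 2 genes. The differences in mean rank were −4410, −3487, −3146, and −5718 for Polk, Rrm2b, Blm, and Dclre1c (exact permutation p = 0.171, 0.114, 0.0857, and 0.0571). At Polk and Dclre1c the LFD-LSK mean includes the ranks assigned to lists without a peak, which enlarge the difference. Over the 64 genes the median difference was 51.5 compared with −37.1 over all starts, and 31 of the 64 were nearer the top in HFD-LSK (50.6% of all starts).
Among the 25 genes with a width in every list, 3 were wider in every HFD-LSK than in every LFD-LSK library (6.64% of all starts). They were Prkdc, the DNA-PK catalytic subunit (1637 compared with 858 bp in mean width), Bard1, the partner of BRCA1 (1536 compared with 856 bp), and Rrm2b (951 compared with 533 bp). The nearest widths of the diets were 1344 and 1314 bp at Prkdc, 1396 and 1289 bp at Bard1, and 708 and 674 bp at Rrm2b. Mean width was larger in HFD-LSK at 92.6% of the starts called in all 7 lists. Widths ranked within the list, which turned 351 wider starts into 51, were not compared for these 3 genes. Rrm2b had the smallest p of the design (exact permutation p = 0.0286; Benjamini-Hochberg adjusted p = 0.717 over the 5283 starts). Rrm2b is the gene of the 69 for which both rank and width do not overlap between the diets. The share of all starts with both was not counted, so nothing about the gene is read from this.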

How the data were processed

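H3K4me3 peak lists of 3 HFD-LSK and 4 LFD-LSK libraries were analyzed, with diets and replicate numbers from the labels. The 7 IgG libraries were not analyzed here. The submitters' processing notes name Trim Galore, Bowtie2, Picard, MACS2, bedtools, HOMER, and featureCounts and the build GRCm38. The study's methods name GRCm39 and SEACR, but the deposited lists are MACS2 narrow peaks, called per library, and their positions fit GRCm38 starts. Each peak line, as deposited, carries a fold enrichment at the summit (a ratio to the local background), a −log10 p-value, a −log10 q-value, and a score. The lists give no read totals, and the lowest −log10 p was 5.01, so weaker signal is not listed.

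Starts came from the RefSeq promoter table of GRCm38.p6 (27025 genes) and, for 5795 other genes, from the RefSeq gene table with the strand taken by symbol from the GENCODE annotation of GRCm39. Together they cover 97.9% of protein-coding genes. The strongest peak by fold that overlaps the 1 kb on either side of any start of a gene was taken, and its rank within the list and its width were recorded. A list without a peak at a start was given the middle of the ranks between its length and the 14659 merged peaks. Ranks (13336 gene starts called in at least 1 list) and widths (5283 called in all 7) were compared by exact permutation tests, two-sided, with Benjamini-Hochberg adjustment over all starts, and calls by Fisher's exact test. No count model could be used, since the lists hold no counts. Python 3.11.15, numpy 2.4.6, pandas 2.3.3, scipy 1.17.1, and bedtools 2.31.1 were used, and the steps were tested on simulated data.

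The 9 genes and the lists of 69 pathway genes and of markers were chosen with earlier results of these data known. One marker result is not reported here. Named were the 9 genes, genes that start within 1 kb of them, the gene with the most similar 7 positions for each gene called in all 7 lists, and, of the 69, those called in 0 to 3 lists, the 3 nearest the top, and those whose ranks or widths do not overlap. The alternatives were ranks by −log10 p, ranks as a percent of the list or among starts called in all 7 lists, another rank for a missing peak, peaks with a −log10 q of 5 or more, lists shortened to the same length, windows of 500 bp and 3 kb, summits within 1 kb, the union of peaks at a start, ranked widths, a replicate block, and leaving out each library.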

Additional observations from a re-analysis of the deposited data

How the results depend on the processing

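Among alternatives that use all libraries without a block, 69 rank differences of the 9 genes kept their direction and their side of the threshold, 6 reversed, and 1 (Mdm2 as a percent of the list, −38.1) passed it, and of the width differences 18 were kept and 4 reversed. Without an HFD-LSK or an LFD-LSK library the smallest possible p is 0.0667 or 0.10, and with the block 0.250, so these designs cannot pass the threshold and show direction alone. In them 63 rank differences kept their direction and 9 reversed, and 30 width differences kept it and 2 reversed. Starts whose ranks do not overlap numbered 276 nearer the top and 315 farther from it in HFD-LSK. They became 541 and 97 as a percent of the list and 145 and 126 among starts called in all 7 lists, where fewer starts are tested. With each library left out in turn, when fewer libraries have to separate, they ran from 462 to 964 and from 531 to 1120. Starts with widths that do not overlap, 351 wider and 0 narrower, became 51 and 269 with widths ranked within the list, the wider became 194 with a −log10 q of at least 5, and leaving out a library gave 353 to 1142 and 0 to 74. The 4 genes called in all 7 lists became 2 with a −log10 q of at least 5 or with an equal number of peaks per list, and 4 to 9 with a library left out, 9 without LFD-LSK 4. The share of all starts was not counted for these settings.

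The difference at Trp53 (−34) turned to 933 when a missing peak took the rank after the last peak. It turned to 471 with a −log10 q of at least 5 and to 190 with an equal number of peaks. Atr (−654) turned to 313 with the rank after the last peak and to 220 with an equal number. Brca1 (1601) turned to −9.43 percentage points as a percent of the list, with the assigned rank of LFD-LSK 4 included. With libraries left out, Trp53 ran from −1937 to 1679 and was positive without HFD-LSK 1 or 3 or LFD-LSK 2 or 4, Atr from −1644 to 595 (without LFD-LSK 4), Mdm4 from −493 (without HFD-LSK 3) to 4882, Chek1 from −1303 to 397 (without LFD-LSK 3), Brca1 from 396 to 3537, and the width at Mdm2 from −42.2 to 661 and at Atm from −142 to 466 (both lowest without HFD-LSK 2). Ranked widths turned Mdm2 to 12.3, Mdm4 to 252, Atm to 1072, and Chek1 to 345, where a positive value is narrower in HFD-LSK. The cause of these reversals was not tested.

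Replicate numbers 1 to 3 occur in both diets, and no label ties them to a shared mouse or day. The study's methods state that diets were compared within a cohort and that its differential analysis took batch and paired samples into account. The labels name no batch, cohort, or pair, so none could enter the tests here. Deviations of same-numbered libraries correlated at 0.0770, 0.0155, and −0.00875 over 5283 starts, compared with −0.0808 to 0.0910 for different numbers. The numbers were therefore not taken as pairs. With the replicate block, 1272 starts ranked nearer the top and 1990 farther from it in all 3 pairs, 1658 were wider and 86 narrower, and Trp53 and Atr turned to 1679 and 595. The lists hold no depth, and a peak below a list's limit cannot be seen.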
